A study of Homo sapiens with 18 samples.

Results

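The reciprocal fusion genes of the t(4;11) translocation were compared with each other on day 3, at the end of a 48 h induction. The comparison used 6 of the 18 ATAC-seq libraries of the series, 3 from HEK293T cells with inducible AF4-MLL and 3 from HEK293T cells with inducible MLL-AF4. Co-expression cells carry MLL-AF4 on a constitutive vector (pSBbi) together with inducible AF4-MLL. The paper describes that AF4-MLL plasmid as transiently transfected and lost once selection ended. Co-expression cells gave 3 libraries on each of days 3 and 28 that enter the fit and serve as a reference level for a few genes. The libraries were chosen by their labels, and 17660 of the 54425 genes in the count table had enough reads to be tested. HEK293T is an established human embryonic kidney line, not a blood cell line. Each single fusion was carried on a doxycycline-inducible Sleeping Beauty vector (pSBTet), which integrates into the genome, in stably transfected cells that all received 1 µg/ml doxycycline. AF4-MLL joins the N-terminal part of AF4 to the larger C-terminal part of MLL, and MLL-AF4 joins the N-terminal part of MLL to the C-terminal part of AF4. None of the labelled libraries came from mock-transfected or uninduced cells, so every difference is relative between the fusions. A gene that was higher with AF4-MLL and a gene that was lower with MLL-AF4 cannot be told apart. The day 28 libraries of the same cells, grown on after doxycycline had been removed, served only as a second comparison of the same kind.

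MLL, encoded by KMT2A, is a histone methyltransferase that marks promoters of active genes on lysine 4 of histone H3 and is cut by the protease Taspase1 into an N-terminal and a C-terminal part. The N-terminal part holds the menin-binding region and a CXXC domain that binds unmethylated CG dinucleotides, while the C-terminal part holds the catalytic SET domain. AF4, encoded by AFF1, is the scaffold of the super elongation complex, which releases paused RNA polymerase II. MLL-AF4 therefore carries the chromatin-targeting part of MLL with the elongation scaffold of AF4, and AF4-MLL carries the catalytic end of MLL. ATAC-seq measures chromatin accessibility by the insertion of a transposase into open DNA, and here the reads had been counted per gene.

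The AF4-MLL libraries of day 3 held 1323431, 442159 and 983703 counts, and the MLL-AF4 libraries held 715327, 648466 and 655431. The shallowest library was AF4-MLL replicate 2. Mitochondrial genes took 40.2, 32.7 and 42.0% of the counts with AF4-MLL, and 44.3, 45.6 and 42.0% with MLL-AF4. The nuclear counts that remained ranged from 297567 to 791448 per library. They still held the nuclear copies of mitochondrial DNA, which share reads with the mitochondrial genes. All 8 markers of HEK293T cells had counts in all 6 libraries, but 6 of 10 blood cell markers did too, and no marker of any list was at 0 throughout, so read counts per gene did not check cell identity. The summed HEK293T markers ranged from 467 to 581 CPM of nuclear counts (CPM, counts scaled to a common library total) with AF4-MLL and from 532 to 570 with MLL-AF4.

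The promoters of the called genes KMT2A, PRDM9, CARD9 and CACYBP, taken from RefSeq (GRCh38.p14), are shown because they are the protein-coding genes with the smallest adjusted p-values of the comparison. Each run covers 300 bases, from 250 before to 50 after the start that the RefSeq promoter table uses, 5′ to 3′ on the strand of the gene, with every CG dinucleotide in capitals, the letters that the CXXC domain of MLL binds when they are unmethylated. For PRDM9 that start lies downstream of the first base of the annotated gene, so its whole window lies within the gene.
KMT2A (chr11:118436242-118436541, + strand): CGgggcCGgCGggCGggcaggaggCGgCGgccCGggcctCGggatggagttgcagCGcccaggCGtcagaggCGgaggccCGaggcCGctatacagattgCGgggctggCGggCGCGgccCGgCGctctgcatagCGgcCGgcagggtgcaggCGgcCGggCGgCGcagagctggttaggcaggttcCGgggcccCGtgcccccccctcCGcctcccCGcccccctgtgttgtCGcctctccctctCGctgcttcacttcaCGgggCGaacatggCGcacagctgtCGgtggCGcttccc
PRDM9 (chr5:23507359-23507658, + strand): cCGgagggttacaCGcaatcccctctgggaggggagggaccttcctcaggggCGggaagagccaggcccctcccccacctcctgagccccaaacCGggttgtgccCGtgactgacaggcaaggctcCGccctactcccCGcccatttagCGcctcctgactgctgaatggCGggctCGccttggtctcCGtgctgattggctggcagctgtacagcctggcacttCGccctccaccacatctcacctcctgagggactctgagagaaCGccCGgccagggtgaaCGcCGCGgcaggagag
CARD9 (chr9:136373620-136373919, - strand): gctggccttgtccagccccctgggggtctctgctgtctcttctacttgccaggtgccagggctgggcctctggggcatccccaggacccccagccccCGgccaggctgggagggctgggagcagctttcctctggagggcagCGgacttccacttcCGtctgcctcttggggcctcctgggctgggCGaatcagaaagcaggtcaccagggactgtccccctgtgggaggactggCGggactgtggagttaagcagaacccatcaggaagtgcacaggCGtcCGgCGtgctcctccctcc
CACYBP (chr1:174999185-174999484, + strand): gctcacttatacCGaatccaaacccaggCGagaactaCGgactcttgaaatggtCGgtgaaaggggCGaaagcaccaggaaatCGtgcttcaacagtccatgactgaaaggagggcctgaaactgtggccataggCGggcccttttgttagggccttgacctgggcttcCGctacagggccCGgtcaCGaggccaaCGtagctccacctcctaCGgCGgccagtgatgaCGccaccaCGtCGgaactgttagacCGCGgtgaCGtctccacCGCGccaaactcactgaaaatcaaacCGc
The window of KMT2A held 36 CG dinucleotides, more than 87.3% of the 35116 promoters in the RefSeq table, whose median was 14. PRDM9 had 17, CACYBP had 22 and CARD9 had 8. The windows of the higher genes KMT2A and CARD9 thus lay on either side of those of the lower genes PRDM9 and CACYBP. On either strand, the letters GAANNTTC, the core of a heat shock element, stood in none of these 4 windows and in 6.77% of all promoters, and the cAMP response element TGACGTCA, held by 1.85%, was absent too. The AP-1 letters TGANTCA (7.71% of all promoters) were not found, and CCAAT (34.6%) stood only in the window of PRDM9, once. A match or its absence describes the letters in the window and nothing about the factor. Of the 15 called protein-coding genes, 14 had a promoter in the table.

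On day 3, 25 of the 17660 tested genes (0.142%) differed between AF4-MLL and MLL-AF4 at an adjusted p under 0.05 (edgeR quasi-likelihood F test, Benjamini-Hochberg adjustment over all tested genes), and these are termed called. Relative to MLL-AF4, 11 genes (0.0623%) were higher with AF4-MLL and 14 (0.0793%) were lower. At an unadjusted p under 0.05, 1687 genes (9.55%) differed, 835 higher (4.73%) and 852 lower (4.82%). The absolute log2 differences of the called genes ranged from 0.54 to 1.42, and 6 of them were above 1. For 23 of the 25 called genes the 3 AF4-MLL libraries all lay on one side of the 3 MLL-AF4 libraries, which was the case for 2481 (14.0%) of all tested genes. The exceptions were FP671120.4 and PPP1R9A. RefSeq held 16 of the called genes, 15 of them protein-coding, and the other 9 were clone-named entries of the count table for which no position was available. The study describes its replicates as biological. Whether they came from separate transfections is not given in the sources used here. The edgeR p-values and standard errors measure spread between libraries, estimated over all 18 of them and not over the 6 compared ones alone.

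**Figure D1:**
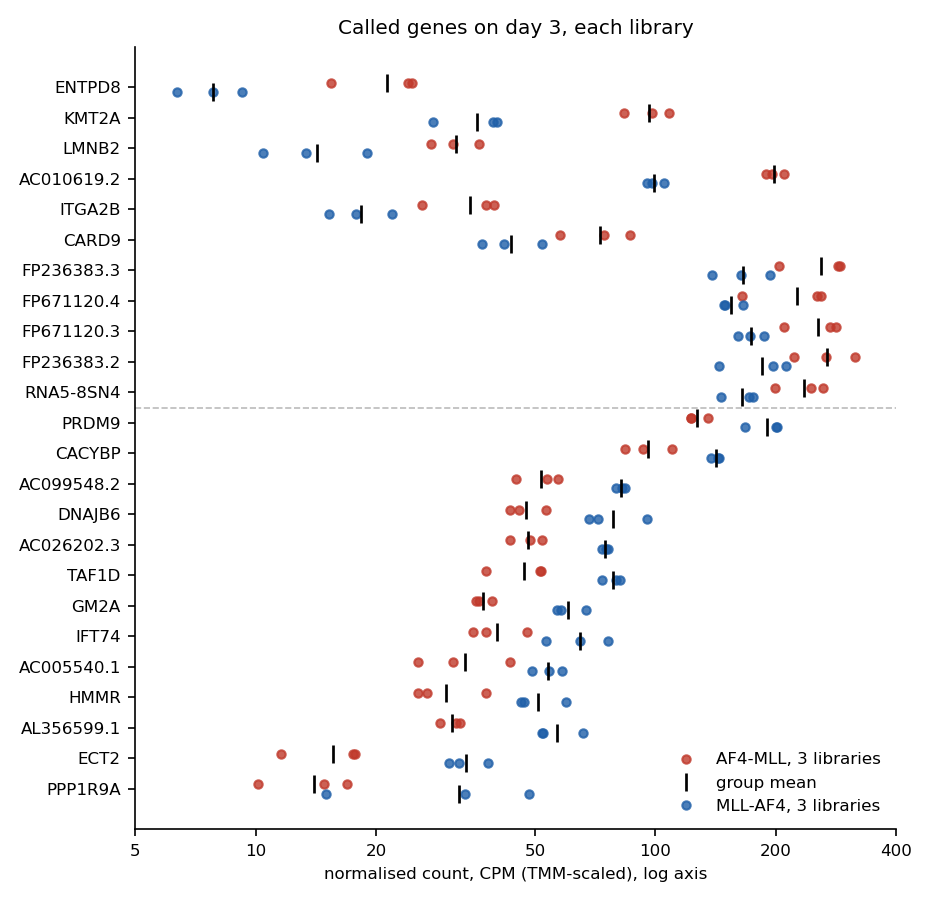
Normalised counts (CPM with TMM scaling, log axis) of 24 of the 25 called genes in the 3 AF4-MLL and the 3 MLL-AF4 libraries of day 3, with the group means as bars and genes ordered by log2 difference. The 11 genes above the dashed line were higher with AF4-MLL, the 13 below it were lower, and the groups overlapped only for FP671120.4 and PPP1R9A.

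KMT2A, the gene of which both constructs carry a part, had the smallest adjusted p. Its normalised counts (CPM, with libraries further scaled by the TMM method) were 83.3, 108 and 97.9 with AF4-MLL and 40.2, 39.3 and 27.7 with MLL-AF4. Every AF4-MLL library was above every MLL-AF4 library, and the lowest of the former was still higher than the highest of the latter by more than the spread within either group. The difference was 1.39 ± 0.17 (log2 ± SE, n = 3 and 3 libraries), a 2.62-fold higher level (adjusted p = 1.71e-10, edgeR). The gene lies on chromosome 11 at 118436492 to 118526832 (GRCh38.p14). The 10 tested genes on each side of it had a median log2 difference of 0.06, between -0.59 and 0.64, and none of them was called. Reads from the integrated MLL cDNA and from the endogenous locus were counted under the same gene name and cannot be told apart here. AFF1, of which both constructs also carry a part, did not pass the test: its counts were 65.8, 63.6 and 59.3 CPM with AF4-MLL and 55.8, 71.0 and 59.0 with MLL-AF4, overlapping, with a log2 difference of 0.03 ± 0.16 (adjusted p = 0.974, edgeR). MIF, which encodes a cytokine, was at -0.27 ± 0.18 (adjusted p = 0.694, edgeR).

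AC010619.2 followed KMT2A closely. Its counts were 209, 189 and 196 CPM with AF4-MLL against 105, 95.1 and 98.3 with MLL-AF4, a log2 difference of 1.00 ± 0.12 (adjusted p = 2.24e-10, edgeR). The replicates of each group were tightly grouped and the groups stood about 2.01-fold apart. The entry is named after a genomic clone and was not matched to RefSeq, so its position and function are not given here. KMT2A and AC010619.2 were the only genes that stayed called when any 1 of the 6 libraries was left out. In the co-expression cells of day 3, KMT2A was at 52.8 ± 5.09 CPM (SD, n = 3) and AC010619.2 at 166 ± 8.72 CPM, both between the means of the single fusions.

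The other called genes higher with AF4-MLL outside the ribosomal repeat were 4 protein-coding genes. CARD9, an adaptor of innate immune signalling downstream of fungal receptors, had 74.5, 57.9 and 86.3 CPM with AF4-MLL and 36.8, 41.9 and 52.0 with MLL-AF4, a difference of 0.79 ± 0.17 (adjusted p = 0.0123, edgeR). ENTPD8, an ectonucleotidase that hydrolyses extracellular nucleotides, had the largest log2 difference of the called genes, 1.42 ± 0.35 (adjusted p = 0.0423, edgeR), on the fewest reads. It had 44, 17 and 20 raw counts with AF4-MLL and 7, 5 and 8 with MLL-AF4. LMNB2, which encodes lamin B2 of the nuclear envelope, had 31.2, 27.5 and 36.2 CPM against 13.4, 19.0 and 10.4, a log2 difference of 1.18. ITGA2B, the platelet integrin subunit alpha IIb, had 39.5, 26.0 and 37.8 CPM against 17.9, 15.2 and 21.96, a log2 difference of 0.97. In each of these 4 genes the groups did not overlap. Unlike around KMT2A, the neighbours of the first 3 were shifted in the same direction. The 20 nearest tested genes had a median log2 difference of 0.51 around CARD9, where the lowest of them was at 0.14, 0.33 around ENTPD8 and 0.45 around LMNB2. Around ITGA2B the median was 0.14.

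The remaining 5 genes higher with AF4-MLL, FP236383.2, FP236383.3, FP671120.3, FP671120.4 and RNA5-8SN4, are annotated copies of the ribosomal DNA repeat, from which RNA polymerase I transcribes ribosomal RNA. FP236383.3 had 290, 204 and 286 CPM with AF4-MLL and 194, 164 and 139 with MLL-AF4, a log2 difference of 0.68 ± 0.13 (adjusted p = 0.00134, edgeR). The other 4 were between 0.54 and 0.59. Of the 16 tested copies, 14 were above 0, with a median log2 difference of 0.52 against 0.00 for all tested genes. The copies are near-identical and share reads, so they count as about 1 locus measured several times, and how multiply mapping reads were assigned is not given in the sources used here. Summed over the copies, the share of nuclear counts was 0.358 ± 0.0621% with AF4-MLL and 0.247 ± 0.0154% with MLL-AF4 (SD, n = 3 each; exact two-sided permutation p = 0.1, the smallest that 3 against 3 libraries can give). In each called copy the lowest AF4-MLL library was replicate 2, the shallowest of the 6 and the one with the lowest mitochondrial share. Its part in the result was not tested.

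Among the 14 genes lower with AF4-MLL, PRDM9 had the smallest adjusted p. PRDM9 encodes a histone methyltransferase with zinc fingers that places meiotic recombination hotspots and is normally confined to germ cells. It had 123, 123 and 136 CPM with AF4-MLL and 201, 202 and 168 with MLL-AF4, a difference of -0.58 ± 0.12 (adjusted p = 0.00428, edgeR). All 3 AF4-MLL libraries lay below the lowest MLL-AF4 library. In the co-expression cells of day 3 it was at 115 ± 8.84 CPM. CACYBP, which binds calcyclin and the ubiquitin ligase component SIAH1, had 93.2, 110 and 84.0 CPM with AF4-MLL and 144, 143 and 138 with MLL-AF4, a difference of -0.60 ± 0.13 (adjusted p = 0.0123, edgeR). Its MLL-AF4 libraries were close together and all above the AF4-MLL libraries. The neighbours of PRDM9 and CACYBP had median log2 differences of -0.15 and -0.05.

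HMMR and ECT2, which act in mitosis as a spindle-associated protein and as the exchange factor that starts cytokinesis, were also lower. HMMR had 26.9, 37.6 and 25.4 CPM with AF4-MLL and 46.9, 59.6 and 46.2 with MLL-AF4, a log2 difference of -0.83. ECT2 had 17.5, 11.6 and 17.7 CPM against 32.4, 30.4 and 38.1, a log2 difference of -1.03. For both genes the groups were separate, on mean raw counts of 39.5 and 24.8 per library. TAF1D, a subunit of the SL1 factor that brings RNA polymerase I to the ribosomal DNA promoter, had 51.5, 37.6 and 51.6 CPM with AF4-MLL and 81.5, 73.6 and 79.8 with MLL-AF4, a log2 difference of -0.68. It was thus lower in the libraries in which the ribosomal repeat copies were higher. TAF1D overlaps 10 other annotated genes, and without strand in ATAC-seq their reads cannot be separated from it. DNAJB6, a J-domain co-chaperone of HSP70, had 53.2, 43.4 and 45.5 CPM against 68.1, 95.1 and 71.7, a log2 difference of -0.68.

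IFT74, a subunit of the intraflagellar transport machinery, was at -0.74, and GM2A, the lysosomal activator protein that presents GM2 ganglioside for degradation, at -0.73. Their adjusted p-values were between 0.0342 and 0.0443 (edgeR), and in both genes the groups were separate. PPP1R9A, which encodes the actin-binding protein neurabin, had the largest decrease, -1.11 ± 0.26 (adjusted p = 0.0342, edgeR), but its MLL-AF4 libraries scattered from 15.03 to 48.2 CPM and overlapped the AF4-MLL libraries, which ranged from 10.1 to 17.0 CPM. The clone-named entries AL356599.1, AC099548.2, AC026202.3 and AC005540.1 lay between -0.65 and -0.84, with separate groups. The clone-named genes had no position in RefSeq and their neighbours were not examined.

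**Figure D2:**
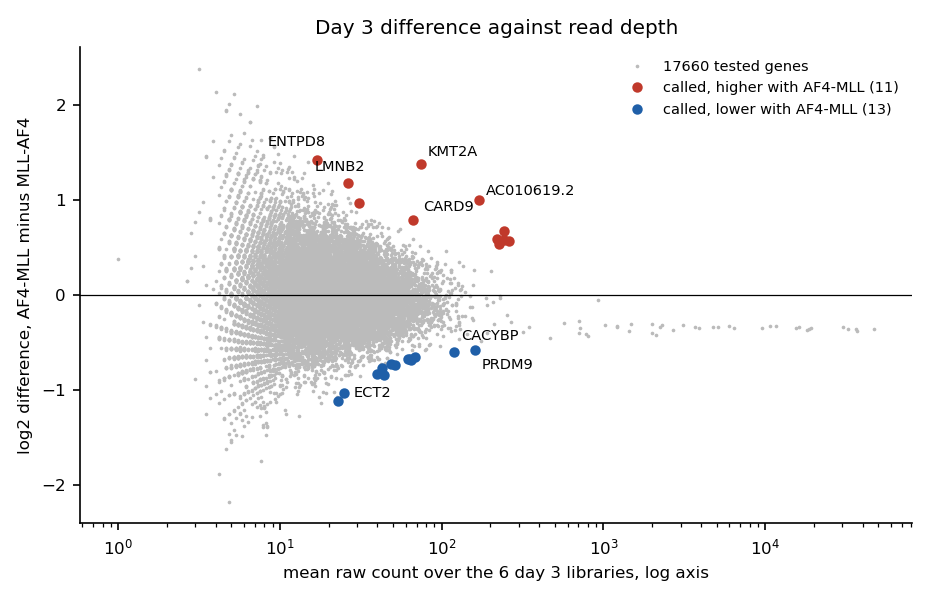
Log2 difference on day 3, AF4-MLL minus MLL-AF4 (vertical), against the mean raw count of the 6 libraries (horizontal, log axis) for all 17660 tested genes, with 11 higher and 13 lower called genes in colour. KMT2A at 1.39 stands apart from genes of similar depth, and the row of grey points at the far right holds the mitochondrial genes and their nuclear copies.

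Apart from KMT2A and AC010619.2, each of the 25 called genes lost its call when at least 1 of the libraries was left out. Only these 2 genes were called without AF4-MLL replicate 1 and also without MLL-AF4 replicate 2. Without AF4-MLL replicate 3, 3 genes were called, the third being PRDM9. Leaving out MLL-AF4 replicate 1 gave 4, with FP236383.2 and FP236383.3 beside KMT2A and AC010619.2. Without MLL-AF4 replicate 3 there were 12, and without the shallow AF4-MLL replicate 2 there were 20, of which 10 and 17 were among the 25. The log2 difference of each of the 25 genes kept its sign in every alternative in which it was tested. Scaling by library size alone moved the median of all tested genes from 0.00 to 0.14 and called 13 genes higher and 0 lower (1701 at an unadjusted p under 0.05), in place of 11 and 14. The direction counts therefore hold relative to the TMM scaling.

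Of the 23 genes of the MLL and COMPASS list (the H3K4 methyltransferases, their shared subunits and menin), KMT2A was called, and 4 were higher at an unadjusted p under 0.05 with none lower. The 3 beside KMT2A were MEN1, which encodes menin (0.36, adjusted p = 0.449, edgeR), WDR5, a shared core subunit (0.57, adjusted p = 0.506), and the acetyltransferase EP300 (0.62, adjusted p = 0.338). Their adjusted p-values do not pass. At the unadjusted threshold, 4.73% of all tested genes were higher and 4.82% lower. The list had a median log2 difference of 0.13, against 0.00 for all tested genes. None of the 32 genes of the AF4 super elongation complex and its partners was called (edgeR), and 3 were higher and 3 lower at an unadjusted p under 0.05. The lower ones were ELL2, an elongation factor (-0.43), LARP7, which holds the 7SK RNA (-0.38), and CDC73, of the PAF1 complex (-0.47). The higher ones were HEXIM2, an inhibitor of P-TEFb (0.69), MLLT6 (0.52) and PAF1 (0.50). CCNT2, a cyclin of P-TEFb and the member with the most reads, was at -0.27 (adjusted p = 0.617, edgeR).

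The 27 tested known targets of MLL fusions had a median of -0.14, with 7 above 0 and none called. Genes in the sparsest of 5 bins by protein-coding genes within 1 Mb, described below, also had a median of -0.14. The part of gene density in this list was not tested. At an unadjusted p under 0.05, where 4.82% of all tested genes were lower, 4 of the targets were lower (edgeR). These were the demethylase-family gene JMJD1C (-0.49), the zinc finger gene ZNF521 (-0.59), CPEB2, a translation regulator (-0.49), and ARID1B, a subunit of the BAF remodelling complex (-0.30). With scaling by library size alone the median of the list was 0.01, with 14 above 0, while that of all tested genes was 0.14. Of the 21 genes of the HSF1 heat shock list, CACYBP was called. HSPA8, the constitutive HSP70, had a log2 difference of -0.54 ± 0.14 (adjusted p = 0.0612, edgeR), just beyond the threshold, and HSF2 was at -0.66 (adjusted p = 0.310). The list as a whole had a median of -0.06, with 10 above 0. With scaling by library size alone it was 0.13, beside 0.14 for all tested genes.

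Among the 20 endoplasmic reticulum chaperone genes, none was called (edgeR), and 4 were higher and 2 lower at an unadjusted p under 0.05. For all tested genes these shares were 4.73% higher and 4.82% lower. HSPA5, the main chaperone of the compartment, had counts of 112 ± 4.57 CPM with AF4-MLL and 82.0 ± 15.3 with MLL-AF4 (0.46, adjusted p = 0.155, edgeR). DNAJC3, its co-chaperone and an inhibitor of PERK, was at -0.94 (adjusted p = 0.165). In the integrated stress response list of 17 tested genes 1 passed an unadjusted p of 0.05, PPP1R15A, which dephosphorylates eIF2 alpha by recruiting a phosphatase (0.89, adjusted p = 0.148, edgeR), and none was called. The AP-1 and immediate early list had 1 of 18, IER3 (0.61), and no call. JUN, with the most reads of that list, had 177 ± 9.62 CPM with AF4-MLL and 189 ± 4.10 with MLL-AF4. The 19 G1 cyclins and CDK inhibitors had none at either threshold (edgeR), and their largest member by reads, CDKN2C, was at -0.25. In the PRDM family of 15 tested genes PRDM9 was called and PRDM12 was at 0.67 (adjusted p = 0.346, edgeR). These lists had medians between -0.06 and 0.10. All gene lists are set against all tested genes, while medians ran from -0.14 in gene-poor to 0.14 in gene-rich parts of the genome. The part of that trend in any list was not tested.

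The same fusions were compared on day 28 in libraries that the day 3 contrast does not use. On day 28, 14 genes (0.0793%) were called. The mitochondrial share of these libraries was 63.6 to 68.0% with AF4-MLL and 64.1 to 65.6% with MLL-AF4, above all 6 libraries of day 3, and its part in the changes between the days was not tested. KMT2A and AC010619.2 were called on both days in the same direction. KMT2A had 98.98, 99.99 and 83.01 CPM with AF4-MLL on day 28 and 47.0, 43.5 and 45.6 with MLL-AF4, a log2 difference of 1.06 ± 0.13. AC010619.2 was at 1.12 ± 0.11. A change of the difference between the days was not detected for either gene, at -0.32 ± 0.23 for KMT2A and 0.12 ± 0.17 for AC010619.2 (log2 ± SE, day 28 minus day 3; adjusted p = 0.670 and 0.871, edgeR), which leaves room for a sizeable change in KMT2A. The ribosomal repeat copies FP671120.3 and FP671120.4 were called on both days in opposite directions, at 0.58 and 0.59 on day 3 and at -0.51 and -0.55 on day 28. Over the 16 tested copies the median was 0.52 on day 3 and -0.51 on day 28.

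Of the 25 genes called on day 3, 7 had the same sign on day 28. The other 5 of these 7 were CARD9 (0.50), ENTPD8 (0.27), LMNB2 (0.22), TAF1D (-0.18) and DNAJB6 (-0.01), none of them called on that day. Tested directly, the difference between the days passed an adjusted p of 0.05 for 56 of all tested genes (0.317%) and for 14 of the 25. PRDM9 went from -0.58 on day 3 to 0.34 on day 28 (adjusted p = 0.000246 for the change, edgeR). In the MLL-AF4 cells its count was 190 ± 19.4 CPM on day 3 and 99.1 ± 7.57 on day 28, and in the AF4-MLL cells 127 ± 7.38 and 124 ± 9.90, so the level that moved was that of the MLL-AF4 cells. ECT2 went from -1.03 to 0.37, HMMR from -0.83 to 0.33 and ITGA2B from 0.97 to -0.36, each with a change that passed. Since both contrasts are on the same day 3 values by which the genes were called, the share of the 25 with a change is a description. The number of genes with a change was 20 without AF4-MLL replicate 3, 23 without AF4-MLL replicate 1, 24 without MLL-AF4 replicate 1 and 32 without MLL-AF4 replicate 2.

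**Figure D3:**
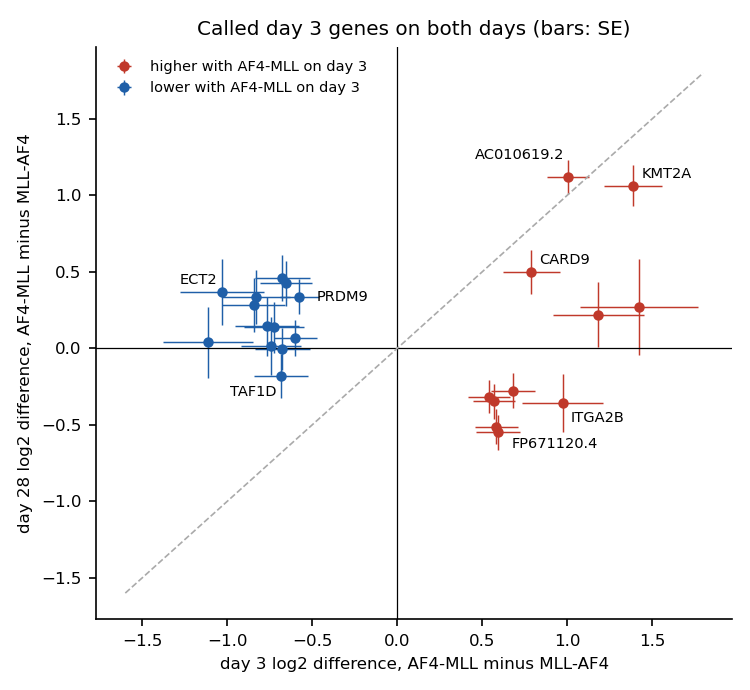
Log2 difference, AF4-MLL minus MLL-AF4, on day 3 (horizontal) and on day 28 (vertical) for 24 of the 25 genes called on day 3, with standard errors as bars and equality as a dashed line. KMT2A and AC010619.2 lie near the line, while most genes lower on day 3 lie at or above 0 on day 28.

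Counts were also summed per chromosome. The share of nuclear counts per chromosome differed on day 3 for 12 of 23 chromosomes (52.2%; limma on log2 shares, Benjamini-Hochberg adjustment over the 46 tests of both days). With AF4-MLL, 7 chromosomes took a larger share (9, 15, 16, 17, 19, 20 and 22) and 5 a smaller one (4, 5, 7, 13 and 18). Chromosome 19 held 4.92, 4.87 and 4.92% of the nuclear counts with AF4-MLL and 4.11, 4.17 and 4.22% with MLL-AF4, a log2 difference of 0.23 ± 0.02 (adjusted p = 6.16e-09, limma). Chromosome 22 held 2.24, 2.22 and 2.26% against 1.95, 1.87 and 1.91%, again a log2 difference of 0.23. At the other end, chromosome 4 held 2.99, 3.06 and 2.96% with AF4-MLL and 3.36, 3.35 and 3.36% with MLL-AF4, a log2 difference of -0.16. The groups did not overlap in any of the 12, but this was the case for 16 of all 23 chromosomes (69.6%). Shares sum to a whole, so a gain of some chromosomes lowers the others.

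All 12 chromosomes kept their sign when any 1 library was left out, but chromosome 7 lost its call without AF4-MLL replicate 1, AF4-MLL replicate 3, MLL-AF4 replicate 1 or MLL-AF4 replicate 2 (adjusted p = 0.0931, 0.158, 0.141 and 0.0792, limma). Chromosome 18 lost it without AF4-MLL replicate 1, AF4-MLL replicate 3, MLL-AF4 replicate 1 or MLL-AF4 replicate 3 (adjusted p = 0.0580, 0.0884, 0.0613 and 0.0770). With the 1% of genes with the highest counts left out, the 12 stayed called and 20 of the 23 chromosomes were called. On day 28, 7 of the 23 chromosomes (30.4%) differed, and all 7 were among the 12 of day 3. Chromosome 9 was higher with AF4-MLL on both days, 0.16 ± 0.02 on day 3 and 0.20 ± 0.02 on day 28. For the other 6, chromosomes 13, 16, 17, 19, 20 and 22, the sign was opposite on day 28. Chromosome 17 went from 0.16 to -0.14, and chromosome 22 from 0.23 to -0.14. The change between the days passed the test for 12 chromosomes, which did not include chromosome 9 (adjusted p = 0.199, limma, over 23 chromosomes, a test added after the day 28 values were seen).

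**Figure D4:**
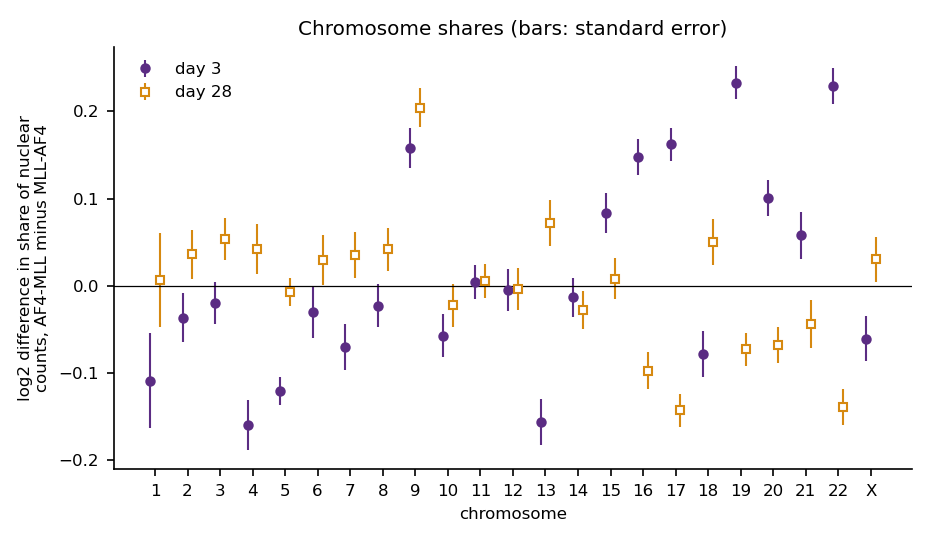
Log2 difference in the share of nuclear counts per chromosome, AF4-MLL minus MLL-AF4, on day 3 (filled) and day 28 (open), with standard errors from limma as bars. Chromosomes 16, 17, 19, 20 and 22 lie above 0 on day 3 and below 0 on day 28, chromosome 13 the reverse, and chromosome 9 above 0 on both days.

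Within the chromosomes, tested genes were taken in order in 298 blocks of 50, and the median log2 difference of a block was past 0.3 in 11 of them, 10 higher and 1 lower with AF4-MLL. The highest was near the end of chromosome 19 from TCF3 to TJP3 (1609292 to 3750813), where 43 of 50 genes were above 0, with a median of 0.47. It holds the called gene LMNB2. On that chromosome the blocks from APBA3 to RFX2 (0.37) and from ZNF699 to RAB3D (0.33) followed. On distal chromosome 9, 4 blocks ran from WDR38 to NRARP (124853460 to 137302271) with medians of 0.34, 0.47, 0.37 and 0.40, and CARD9 lies in the third of them. The proximal blocks of chromosome 9 ran the other way, at -0.18 from WASHC1 to PLIN2 and at -0.20 from DENND4C to ENHO, where 10 of 50 genes were above 0, so the larger share of chromosome 9 came with differences of both signs along it. The 4 distal blocks were at 0.28, 0.26, 0.34 and 0.25 on day 28. The block on chromosome 22 from SREBF2 to MIRLET7BHG was at 0.44 on day 3 and 0.05 on day 28. Blocks at the end of chromosome 16 (POLR3K to TELO2, 0.33) and on chromosome 17 (ZNHIT3 to CSF3, 0.33) were below 0 on day 28. Chromosome 16 likewise held blocks below 0 on day 3, at -0.12 from LONP2 to ADGRG3 and at -0.10 from ADAT1 to FOXF1. The single lower block past 0.3, PLEKHG4B to RETREG1 at the end of chromosome 5 (92168 to 16616997), was at -0.31 with 4 of 50 genes above 0, and at -0.23 on day 28. Of the 11 blocks, 6 had the same sign on day 28, namely those on chromosomes 9, 22 and 5.

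Genes in gene-poor and gene-rich parts of the genome differed in opposite directions. Tested genes with a RefSeq position were divided into 5 bins of similar size by the number of protein-coding genes within 1 Mb on either side. The median log2 difference on day 3 was -0.14 in the sparsest bin (0 to 11 neighbours), -0.07, 0.00 and 0.07 in the next 3, and 0.14 in the densest (48 to 113). On day 28 the order was reversed, from 0.07 in the sparsest to -0.06 in the densest. Read per library, against the mean of all 18 libraries, the 3 MLL-AF4 libraries of day 3 were at 0.12, 0.13 and 0.11 in the sparsest bin and at -0.09, -0.09 and -0.07 in the densest. The AF4-MLL libraries of day 3 were at -0.02, 0.02 and -0.01 in the sparsest and at 0.06, 0.03 and 0.06 in the densest. The libraries that stood apart from the other groups were therefore those with MLL-AF4 on day 3, while the 3 co-expression libraries of day 3 were at -0.03, -0.04 and -0.02 in the sparsest and at 0.08, 0.07 and 0.05 in the densest. Chromosome 19, where tested genes had a median of 60 such neighbours, and chromosomes 4 and 13, with 11 each, were among the chromosomes with the largest differences, but chromosome 9 had a median of 21.

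**Figure D5:**
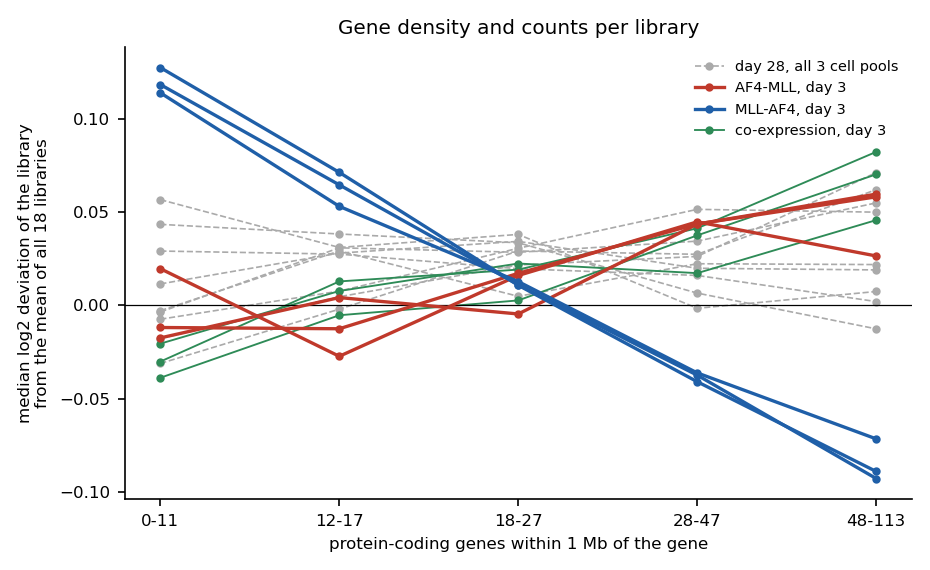
Median log2 deviation of each library from the mean of all 18 libraries (vertical) in 5 bins of genes by the number of protein-coding genes within 1 Mb (horizontal). The 3 MLL-AF4 libraries of day 3 fall from between 0.11 and 0.13 in the sparsest bin to between -0.09 and -0.07 in the densest, and the other libraries stay within -0.04 and 0.08.

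Of the 16 called genes with a position, the sparsest bin held 8, all lower with AF4-MLL, and the densest bin held 5, all higher. These bins held 3521 and 3072 of the 15489 tested genes with a position. Between them, the second bin held 1, RNA5-8SN4, which was higher, the next held 2, TAF1D and GM2A, both lower, and the fourth held 0. RNA5-8SN4 merges several identifiers and shares reads with the other repeat copies. Its listed position, 128877 to 129032 on chromosome 22, is at best that of 1 copy and was not checked against the assembled chromosome. Its density, its bin and its call after the density step below are therefore not interpreted. PRDM9 has 1 protein-coding gene within 1 Mb and HMMR has 4, while CARD9 has 79, ENTPD8 64, LMNB2 57 and KMT2A 53. When the trend with gene density was removed from each library, an alternative added after the data were seen, 2 of the 16 called genes with a position stayed called, KMT2A and RNA5-8SN4, where 6 were called among the same genes without that step. KMT2A was then at 1.27 (adjusted p = 1.53e-08, edgeR; its adjusted p was at most 0.00247 over all alternatives). PRDM9 was at -0.42 (adjusted p = 0.195) and CACYBP at -0.47 (adjusted p = 0.195), over alternatives with adjusted p up to 0.901 and 0.991. TAF1D was at -0.66 and GM2A at -0.75, both with an adjusted p of 0.0878. Gene length showed a smaller gradient, from 0.03 in the shortest genes to -0.07 in the longest of 5 bins.

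Mitochondrial DNA is free of nucleosomes and takes many transposase insertions, so its share varies with how nuclei were prepared. Mitochondrial genes took 38.3 ± 4.95% of all counts with AF4-MLL and 44.0 ± 1.83% with MLL-AF4 (SD, n = 3 each), a difference of -5.65 percentage points that did not pass an exact two-sided permutation test (p = 0.2, smallest possible 0.1). Without the shallow AF4-MLL replicate 2 it was -2.84 points. Of 36 tested mitochondrial genes 35 were below 0, with a median log2 difference of -0.34, and none was called (edgeR). An unadjusted p of 0.05, which 9.55% of all tested genes passed, was passed by 7 of the 36, all of them transfer RNA genes. The median was -0.18 with scaling by library size alone, where that of all tested genes was 0.14. It was -0.05 with a loess offset, under which 15 were above 0 and the median of all tested genes was 0.01. The 23 tested nuclear copies of mitochondrial DNA, which share reads with the originals, had a median of -0.31, with 22 below 0.

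The thresholds that the study used for its chromatin signatures (unadjusted p under 0.05, absolute log2 over 1, mean count over 2) were also applied. They were put here on the 17660 genes past the read filter with edgeR p-values, where the study used DESeq2. Genes removed by that filter could not be selected. On day 3, 267 genes (1.51%) were selected, 174 higher and 93 lower with AF4-MLL. Their median mean count was 7.5, against 18 for all tested genes, and 198 of them had under 10. Only 6 were called: KMT2A, AC010619.2, LMNB2, ENTPD8, PPP1R9A and ECT2. Among the selected genes with at least 10 counts and no call, the most extreme by log2 difference were AC103702.2 (1.47) and ANO7L1 (1.41) at the upper end, and EFNB2, which encodes the guidance ligand ephrin-B2 (-1.28), RNU5A-8P (-1.26) and AC099568.2 (-1.21) at the lower end. On day 28, 120 of the 267 had the same sign. The 4 selected on both days in the same direction were KMT2A, AC010619.2, HBQ1 (-1.34 on day 3) and CSGALNACT2 (-1.62), the last 2 at mean counts of 6.33 and 4.67. The 5 genes past an absolute log2 of 2, LINC01117, AL022326.1, LINC01702, TNFRSF13B and SIK1B, had mean counts of 3.17 to 5.17 and adjusted p-values of 0.108 to 0.346 (edgeR), and were named after their values were seen, as were HBQ1 and CSGALNACT2. With DESeq2 on the same tested genes 204 were selected, 134 of them higher. With scaling by library size alone 363 were selected, 323 of them higher. Leaving out a library raised the number, to 407 without AF4-MLL replicate 1, 410 without AF4-MLL replicate 3, and 448, 416 and 450 without MLL-AF4 replicates 1, 2 and 3.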

How the data were processed

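ATAC-seq libraries from HEK293T nuclei, 6 groups of 3, had been demultiplexed, aligned and counted by the authors. The submitters' processing notes name bcl2fastq, Bowtie2, HTSeq and GRCh38 without versions. The deposited values are raw read counts per gene, with whole numbers per library. The region counted per gene, duplicate removal, multiple mapping and the transposase shift are not given in the sources used here, so a count may hold promoter and gene body reads alike.

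From these counts, genes were filtered with filterByExpr (minimum count 10, minimum total 15), scaled by TMM and fitted over all 18 libraries and 6 groups with edgeR 4.0.16 (R 4.3.3). Chromosome shares were tested with limma 3.58.1, with positions from RefSeq by symbol (35417 of 54425 symbols, 87.7% of tested genes). The biological coefficient of variation was 7.48%. Replicates of a group differed beyond sampling noise. DESeq2 1.42.0, other scalings, filters, the replicate block and left-out libraries were alternatives. Steps were tested on simulated data. The members and gene lists were chosen with earlier results of these data known. Named genes were KMT2A, AFF1, MIF, all called genes (1 of them is counted but not reported here), in each list up to 3 members by p under 0.05 and the one with most reads, 3 genes at each end of the study's selection with at least 10 counts, 2 genes called only on day 28 and block ends. Other members of a list that passed p under 0.05 were named to complete a count, after their values were seen.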

Additional observations from a re-analysis of the deposited data

Results flagged for a closer look

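The difference between AF4-MLL and MLL-AF4 changed between day 3 and day 28 for 56 genes (edgeR, contrast of both differences, adjusted p under 0.05). Values below are the day 28 difference minus the day 3 difference on the log2 scale. It changed upwards for the called genes PRDM9 (0.92), CACYBP (0.67), AL356599.1 (1.13), AC099548.2 (1.08), HMMR (1.17), AC026202.3 (1.14) and ECT2 (1.40). Among the ribosomal repeat copies it changed downwards for FP236383.2 (-0.91), FP236383.3 (-0.96), FP671120.3 (-1.10), FP671120.4 (-1.14) and RNA5-8SN4 (-0.85), which share reads, and it also did so for ITGA2B (-1.33). Genes not called on day 3 with such a change were MTCO1P40 (0.70), a nuclear copy of mitochondrial DNA, RNU5A-8P (2.30), ANO7L1 (-2.01) and RF01518 (-0.78).

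The same test on the log2 share of nuclear counts per chromosome (limma, adjusted over 23 chromosomes) passed upwards for chromosomes 4 (0.20), 5 (0.11), 7 (0.11), 13 (0.23), 18 (0.13) and X (0.091), and downwards for chromosomes 16 (-0.25), 17 (-0.30), 19 (-0.31), 20 (-0.17), 21 (-0.10) and 22 (-0.37). All 6 day 3 libraries enter each of these values, so the change between the days is not independent of the day 3 difference.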

How the results depend on the processing

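The count of 25 genes called on day 3 became 11 with DESeq2, 13 with scaling by library size alone, 12 with a loess offset, 10 with no filter on low counts, 43 with a mean of at least 30 counts, 42 with the 6 day 3 libraries only and 2 with nuclear counts thinned to 297567 per library. With genes that have a RefSeq position it was 6, and with the gene density offset 2 (both added after the data were seen). Leaving out 1 library gave 2 to 20. DESeq2 size factors (27), nuclear genes only (28) and the 12 single fusion libraries (30) moved it little. Same-numbered libraries did not deviate together (correlations -0.014, -0.0029 and -0.027), nor did the other pairs (-0.0050 to 0.019). At these read depths such a check cannot show whether the numbers mark a shared preparation. The replicate block gave 22 genes, 21 of them among the 25, with 12 on day 28, 48 for the change between days, 259 by the study's thresholds and 12 chromosomes. Genes called on day 28 (14) became 2 with DESeq2 and 2 with library size alone. Genes with a change between the days (56) became 8 with DESeq2, 11 with library size alone and 20 to 47 without 1 library. The 267 genes of the study's thresholds became 5 at an absolute log2 over 2 and 385 to 450 without 1 library. Chromosomes called (12) became 20 without the 1% of genes with the highest counts and 10 to 13 without 1 library. The mitochondrial difference ranged from -7.51 to -2.84 points without 1 library, and was -4.60 without ribosomal RNA genes and -6.14 with nuclear copies included.

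No called gene changed sign in any alternative. Genes that did change sign were never called in any of them. Without 1 library, AFF1 ranged from -0.036 to 0.137, SLC3A2 from -0.084 to 0.287 and UBTF from -0.114 to 0.206. AFF1 was below 0 without AF4-MLL replicate 1 (-0.017) or MLL-AF4 replicate 1, SLC3A2 without MLL-AF4 replicate 2, and UBTF without AF4-MLL replicates 1 or 2 or MLL-AF4 replicates 1 or 3. With library size alone, CANX was at 0.076 and JUN at 0.070. With the gene density offset, JUN was at 0.036, SLC3A2 at -0.061 and UBTF at -0.112. Thinned, UBTF was at -0.023 and KDR at -0.32. With a loess offset, MT-ND5 was at 0.10 and MTCO1P12 at 0.0044. HSPA8 passed the test with a mean of at least 30 counts, with the 6 day 3 libraries and with the 12 single fusion libraries (adjusted p = 0.0292, 0.0311 and 0.0465; 0.0292 to 0.991 over all). The cause of these changes was not tested. Most tested genes had fewer than 30 counts per library, which limits calls to large differences.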

Other observations

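UBTF, which encodes the upstream binding factor of RNA polymerase I, was called on day 28 (-0.62) and not on day 3 (0.00). The change between the days did not pass (adjusted p = 0.255, edgeR). RF01518, an RNA family entry that merges several identifiers, was called on day 28 at -0.53 and was at 0.25 on day 3 (adjusted p = 0.512). The other genes called on day 28 and not on day 3, given by name after their values were seen, were HOXB6 (-0.72 on day 28) and LINC01273 (2.20), BORA (0.63), STEAP2 (0.86), VPS13A (0.64), KIAA1958 (1.17), CFAP157 (0.66) and ZER1 (0.80). On day 3 these 10 genes ranged from -0.35 to 0.55.

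Markers of endothelial cells were counted for 3 tested genes, all above 0 on day 3 with a median of 0.36, and none was called (edgeR). KDR, the one with the most reads, was at 0.14 (adjusted p = 0.936). The 5 tested blood cell markers had a median of -0.10, the 4 fibroblast markers 0.05 and the 8 HEK293T markers 0.03, and none of these lists had a called gene. VIM, with the most reads of the HEK293T markers, was at -0.46 (adjusted p = 0.222). The summed fibroblast markers ranged from 109 to 139 CPM of nuclear counts with AF4-MLL and from 102 to 128 with MLL-AF4. For the endothelial markers the ranges were 97.5 to 112 and 75.3 to 90.7, which did not overlap, and for the blood cell markers 155 to 179 and 153 to 191.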
